A study of Mus musculus with 2 samples.

Results

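The proliferin genes *Prl2c2*, *Prl2c3* and *Prl2c5* were read on a pair of single-colour Agilent mouse arrays, 1 hybridized with RNA of RAW264.7 cells given vehicle and 1 with RNA of cells given IR-61. The cells are a macrophage line from the ascites of a BALB/c mouse with an Abelson virus-induced leukemia, and IR-61 is a near-infrared dye that accumulates in mitochondria. Both cultures received their treatment for 24 h in serum-containing medium, IR-61 at 10 μM as the legend of the microarray panel gives it, and the vehicle is not named in the sources used here. The genes were taken by symbol, and the group was chosen by the large difference of *Prl2c5* between these same arrays, so the values below describe that difference and do not test it. With 1 array per condition no test between the conditions exists, and an effect of IR-61 cannot be told apart from any other difference between the cultures or arrays.

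Of the 3 genes, 1 could be read. Matching the accession of each probe to a gene table named 27224 of 39419 probes and 20655 genes, and it gave 2 probes for *Prl2c5*. It gave none for *Prl2c2* or *Prl2c3*, which were therefore not analysed here. *Prl2c1*, a more distant relative with a similar name, had 1 probe and served as the nearest measured paralog.

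Proliferins are secreted glycoproteins of the prolactin and growth hormone family. They were first found in growing mouse fibroblasts and are known best as products of the trophoblast giant cells of the placenta, where they promote the growth of blood vessels. Their genes are nearly identical copies of each other. In the gene table (assembly GRCm38.p6) the order on chromosome 13 is *Prl2c3*, *Prl2c2* and *Prl2c5*, with 4 and then 6 other entries between them, most of them pseudogenes. *Prl2c1* follows 483 entries after *Prl2c5*, inside the main prolactin gene cluster.

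The likeness of the copies is visible in their promoters, which are shown because *Prl2c5* is the copy with a value. Most of the sequence shown lies before the transcript start, so it does not show how far a probe can tell the genes apart. RefSeq windows of 300 bases, from 250 before to 50 after the transcript start, were at hand for *Prl2c5* (GRCm38.p6, chr13:13182466-13182765, plus strand) and *Prl2c3* (GRCm38.p6, chr13:12800030-12800329, minus strand). Both are written 5′ to 3′ along the gene, and capitals mark the bases that differ in the alignment.
Prl2c5: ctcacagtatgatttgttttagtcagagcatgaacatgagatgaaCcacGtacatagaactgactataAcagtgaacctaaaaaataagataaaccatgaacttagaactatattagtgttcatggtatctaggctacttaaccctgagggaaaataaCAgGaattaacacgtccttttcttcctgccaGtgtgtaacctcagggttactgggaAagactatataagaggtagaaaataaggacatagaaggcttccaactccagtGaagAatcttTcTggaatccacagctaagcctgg
Prl2c3: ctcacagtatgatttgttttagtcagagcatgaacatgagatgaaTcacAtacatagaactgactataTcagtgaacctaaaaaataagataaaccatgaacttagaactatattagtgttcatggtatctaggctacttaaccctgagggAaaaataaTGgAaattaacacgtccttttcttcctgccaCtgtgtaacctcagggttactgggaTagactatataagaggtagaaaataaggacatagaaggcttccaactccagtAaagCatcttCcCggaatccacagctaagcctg
The windows shared 287 of 300 aligned positions (95.7%), with 12 substitutions and 1 gap. Matches to 8 motifs were searched on both strands. They were TGANTCA, which AP-1 binds, TGACGTCA for the CRE, TATAAA for the TATA box, the CCAAT box, AGATAA for the GATA factors, CACGTG for the E-box, TGACNNNGC for the antioxidant response element (ARE) and the consensus of NF-κB. The GATA letters occurred in both windows, 163 bases before the start, and in 11.2% of 32851 promoter windows of this length. The AP-1 letters occurred in *Prl2c3*, 209 bases before the start, and in 7.81% of all windows. *Prl2c5* differs within these letters by the substitution C46T (the *Prl2c5* base, its position counted from the 5′ end of its window, then the *Prl2c3* base). The other 6 motifs had no match in either window, which concerns these letters only. The shares of all windows with these 6 were 1.79% for CRE, 13.6% for TATA, 37.4% for CCAAT, 7.15% for the E-box, 12.4% for ARE and 8.46% for NF-κB.

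Both probes of *Prl2c5* were brighter with IR-61. Signals are the processed intensities of the scanner software, background-subtracted but not scaled between arrays. The probe A_55_P2004752 had a signal of 163 with vehicle and of 1619 with IR-61. The probe A_52_P619248 had a signal of 89.1 with vehicle and of 719.8 with IR-61. Each signal was well above background by the software's own flag, and the lowest signal with this flag was 11.4 with vehicle and 14.5 with IR-61. The raw spot medians, with the median of the local background in second place, were 227 and 17 with vehicle and 1812.5 and 24 with IR-61 for the first probe. For the second they were 119 and 20 with vehicle and 769 and 21 with IR-61. The spots of both probes were brighter with IR-61 by more than their local background was.

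**Figure D1:**
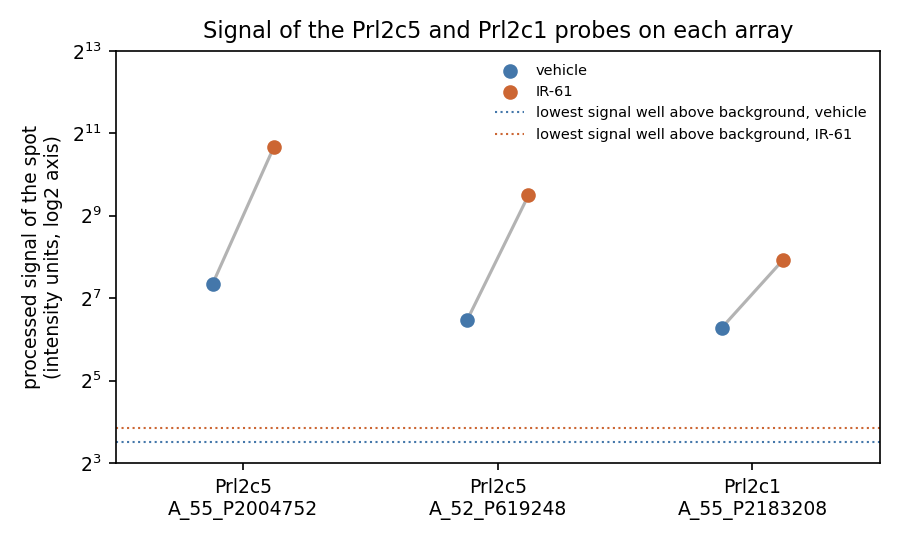
Processed signal (log2 axis) of each *Prl2c5* and *Prl2c1* probe after vehicle and after IR-61, 1 spot per probe and array. Dotted lines mark the lowest signal well above background on each array (11.4 and 14.5), and all 6 signals lie above them.

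The IR-61 array was brighter as a whole, so log2 signals were reduced by the 75th percentile of their array, 10.30 for vehicle and 10.79 for IR-61. Without this scaling every difference would be larger by 0.49, and a negative difference smaller in size than this would change sign. On the scaled log2 scale A_55_P2004752 went from -2.95 with vehicle to -0.13 with IR-61, a log2 difference of 2.82 and a 7.06-fold higher signal. A_52_P619248 went from -3.83 to -1.30, a log2 difference of 2.53 and a 5.76-fold higher signal. An error can be taken only from how repeated spots scatter within an array, here those of 399 probes printed 10 times. This gave an expected SD of 0.190 for the first difference and of 0.231 for the second, and it leaves out the spread between cultures. The probes differed from each other by 0.30, against an expected SD of 0.30, so their estimates of the change were not separated beyond the noise between spots.

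Among the probes measured on both arrays 2.02% had at least a 2-fold higher signal with IR-61, as did both *Prl2c5* probes. Dim probes scatter more, so the share was also taken for probes with a vehicle signal between 64 and 256. Of these 6869 probes 2.1% passed the limit, their median log2 difference was 0.08 and its SD across probes was 0.47. Within them A_55_P2004752 held place 2 and A_52_P619248 place 3 from the top. Over genes, each read by its brightest probe, 1.99% of 16888 were higher by 2-fold or more, and *Prl2c5* took rank 2. The 336 genes higher stood beside 235 lower, a split that was 249 against 295 with scaling by the median. Since these values chose the gene, the ranks are descriptive.

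**Figure D2:**
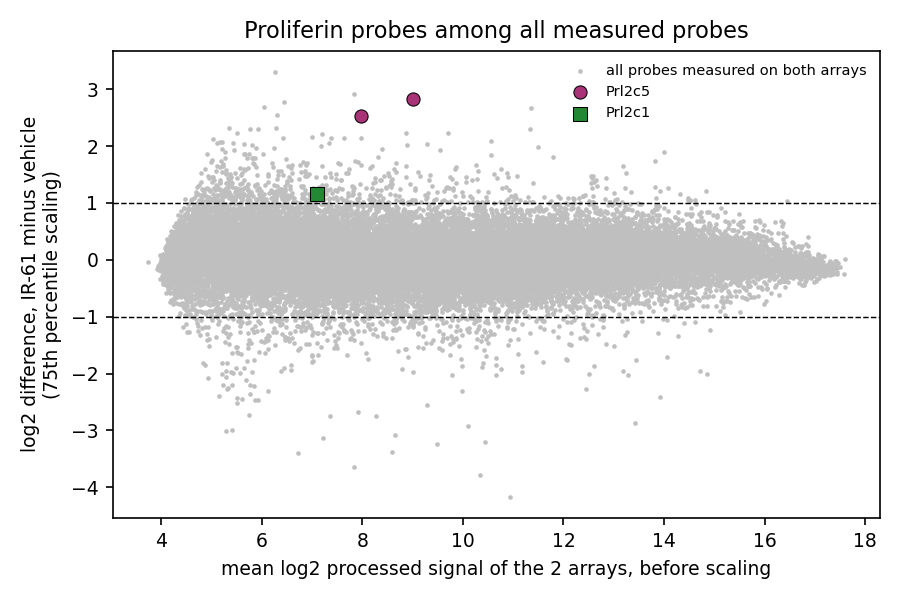
Log2 difference (IR-61 minus vehicle, scaled) of every probe measured on both arrays against its mean log2 signal before scaling, with dashed lines at 2-fold. The *Prl2c5* probes (2.82 and 2.53) stand above nearly all probes of like signal, and the *Prl2c1* probe (1.15) lies just over the 2-fold line.

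The spots of these probes lay apart on the array, at row 356 and column 55 and at row 21 and column 38. The spots within 5 rows and 5 columns of the first had a median log2 difference of -0.01 (96 spots) and those around the second of 0.14 (98 spots). None of them was higher by 2-fold or more. Neither *Prl2c5* probe moved below the 2-fold limit under the processing settings tried. The differences lay between 2.40 and 3.31 for A_55_P2004752 and between 2.02 and 3.01 for A_52_P619248, lowest with normexp background correction and highest without scaling. Each probe is 1 spot per array, so the median over spots cannot move it. The mean over the probes of a gene leaves the value of a single probe as reported. A filter on dim probes can only drop it.

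**Figure D3:**
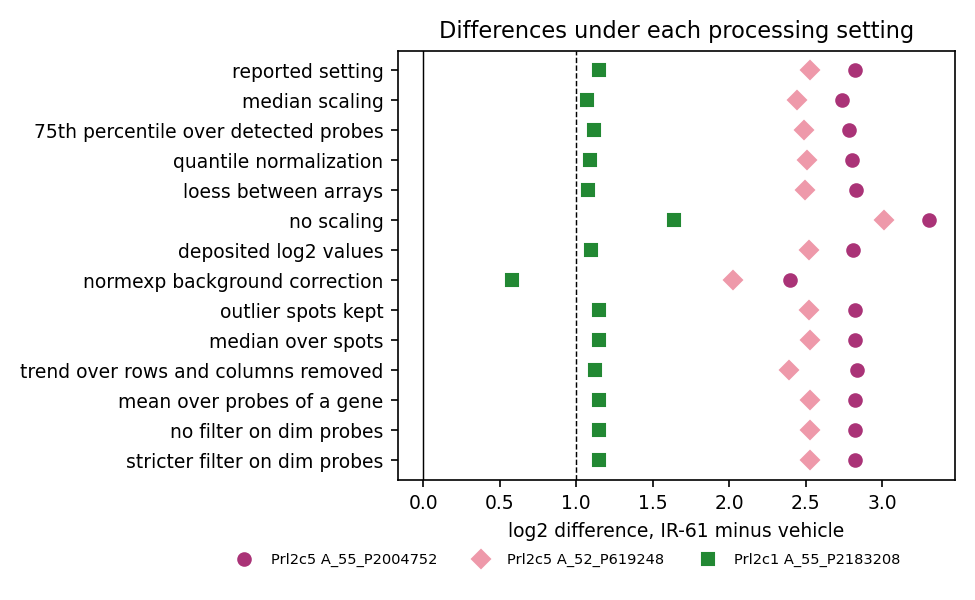
Log2 difference (IR-61 minus vehicle) of the *Prl2c5* and *Prl2c1* probes under the reported setting and 13 others, with a dashed line at 2-fold. Both *Prl2c5* probes stay above a log2 difference of 2 throughout, and *Prl2c1* drops to 0.58 with normexp background correction.

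The paralog *Prl2c1* was also brighter with IR-61, by less. Its probe A_55_P2183208 had a signal of 78.1 with vehicle and of 243 with IR-61. The log2 difference was 1.15 (expected SD 0.231), a 2.22-fold higher signal and rank 195 of all measured genes. The spots around it had a median difference of 0.15 (95 spots), and none was higher by 2-fold or more. With normexp background correction the difference was 0.58, under the 2-fold limit. The difference of *Prl2c1* was smaller than that of the *Prl2c5* probes by 1.67 and 1.37, which is 5.57 and 4.20 times the SD expected from spots. Since *Prl2c5* was chosen by its large difference on these arrays, these gaps are descriptive and test nothing. Probe sequences were not used here, and which of the proliferin transcripts each of these probes binds was not tested.

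Of the rest of the prolactin family *Prl2c1* alone passed 2-fold in the reported setting (1.99% of all measured genes were higher by that much). The family list, chosen with earlier results of these arrays known, held 25 other genes (with *Gh*, growth hormone), and 23 of them had a probe. On both arrays 11 of the 23 were not well above background, among them *Prl4a1*, *Prl5a1* and all of *Prl8a2*, *Prl8a6*, *Prl8a8* and *Prl8a9*, which are placental members. Of the 8 genes measured on both arrays 7 were higher and 1 lower (10332 of all 16888 measured genes were higher), with a median log2 difference of 0.29 against 0.10 over all measured genes. With normexp background correction the family median was 0.09.
*Prl* itself, the pituitary hormone, had signals of 40.1 and 73.5 and a log2 difference of 0.39. *Prl3b1* and *Prl3d1*, the placental lactogens, were nearly level, with signals of 452 and 639 and a difference of 0.01 for *Prl3b1*. For *Prl3d1* the signals were 221 and 354 and the difference was 0.19. These 2 differences were smaller than their expected SD of 0.231. *Prl3d2*, a further placental lactogen copy, had a difference of 0.07, *Prl2b1* of 0.55 and *Prl6a1* of 0.59. The second probe of *Prl6a1* was not well above background on either array. *Prl8a1* was lower, from 49.5 to 35.4, with a difference of -0.97 (expected SD 0.362). It was under 2-fold in the reported setting but passed it with scaling by the median (-1.05) or by the detected probes, with quantile normalization, with loess and in the deposited values, where it was lowest (-1.16). Without scaling it was at -0.48. For 4 genes only a bound can be given, because 1 array was not well above background. *Gh* was at least 1.76-fold higher with IR-61, *Prl3a1* at least 1.62-fold and *Prl2a1* at least 1.30-fold, while *Prl7b1* was at least 1.51-fold lower. Their signals on the brighter array were between 15.6 and 28.2, close to the lowest signal well above background.

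**Figure D4:**
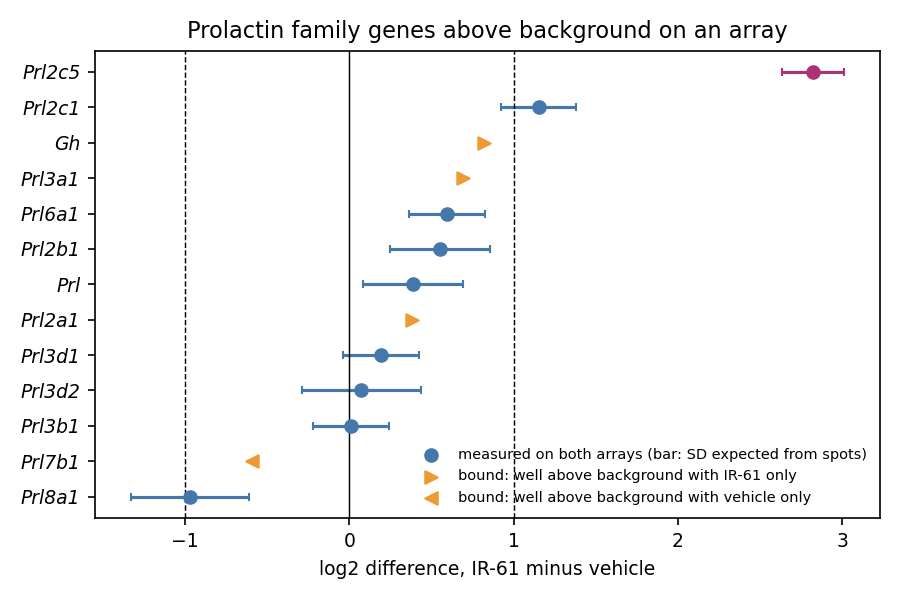
Log2 difference (IR-61 minus vehicle) of the prolactin family genes that were well above background on at least 1 array, with dashed lines at 2-fold. Points are genes measured on both arrays with the SD expected from spots as bars, and triangles are bounds. *Prl2c5* (2.82) is followed by *Prl2c1* (1.15), and the other genes lie between -0.97 and 0.82.

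Receptors and signalling proteins of prolactin, growth hormone and proliferin were measured as a list of 21 genes, all well above background on both arrays. Their median log2 difference was 0.02, 11 were higher and 10 lower, and none passed 2-fold by its brightest probe in either direction (over all genes 1.99% were higher and 1.39% lower by that much). Other probes of 2 genes did. 1 of 4 probes of *Igf1*, the growth factor induced by growth hormone, went from 4444 to 19619 with a difference of 1.65, while the brightest gave 0.68. 1 of 3 probes of *Socs2*, an inhibitor of growth hormone signalling, went from 152 to 94.5 with a difference of -1.18, while the brightest gave -0.34. *Igf2r*, the mannose 6-phosphate receptor to which proliferin binds, was printed 10 times. It had a signal of 14951 with vehicle and of 23722 with IR-61, and a difference of 0.18. *Prlr*, the prolactin receptor, had signals of 754 and 959 and a difference of -0.14, and its second probe did not reach that level on either array. *Ghr*, the growth hormone receptor, had a difference of 0.50 by its brighter probe and of 0.40 by the other. Downstream, the kinase gene *Jak2* had a difference of -0.16, and the transcription factor genes *Stat5a* and *Stat5b* had 0.03 and 0.52. The ends of the list were *Igf1r*, the IGF-1 receptor, at 0.95 and *Socs3*, an inhibitor of cytokine signalling, at -0.80.

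Other secreted angiogenic factors and their inhibitors, of which proliferin is 1 kind, had a median difference of 0.01 over 22 of 24 genes. By the brightest probe 1 was higher and 2 were lower by 2-fold or more (1.99% and 1.39% of all measured genes). The higher one was *Timp1*, a protease inhibitor, which had signals of 3621 and 10280.3, a difference of 1.02 and, with scaling by the median, 0.93. The chemokine gene *Cxcl12* had 0.81 by its brightest probe and 1.43 by its other probe, which went from 452 to 1708. The lower ones were *Angptl4*, a secreted lipase inhibitor, at -1.38 and the growth factor gene *Pdgfb* at -1.07, and both were under the limit without scaling, at -0.89 and -0.58. *Angpt1* was at least 1.27-fold higher, and *Fgf2* was well above background with vehicle only.

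The AP-1 factors, which are known to act on the proliferin promoter, were measured for 7 of 7 genes. None was higher by 2-fold or more and 3 were lower (1.99% and 1.39% of all measured genes), with a median of -0.18. *Fos*, printed 10 times, had a signal of 3738 with vehicle and of 1429 with IR-61, a difference of -1.87 (expected SD 0.0299). *Junb* went from 734.5 to 316, a difference of -1.71. *Fosl2* had -1.05 by its brighter probe and -1.01 by the other, and was under the limit without scaling, at -0.57. *Jun* was the highest of the list at 0.42. A part of AP-1 in the difference of *Prl2c5* was not tested.

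**Figure D5:**
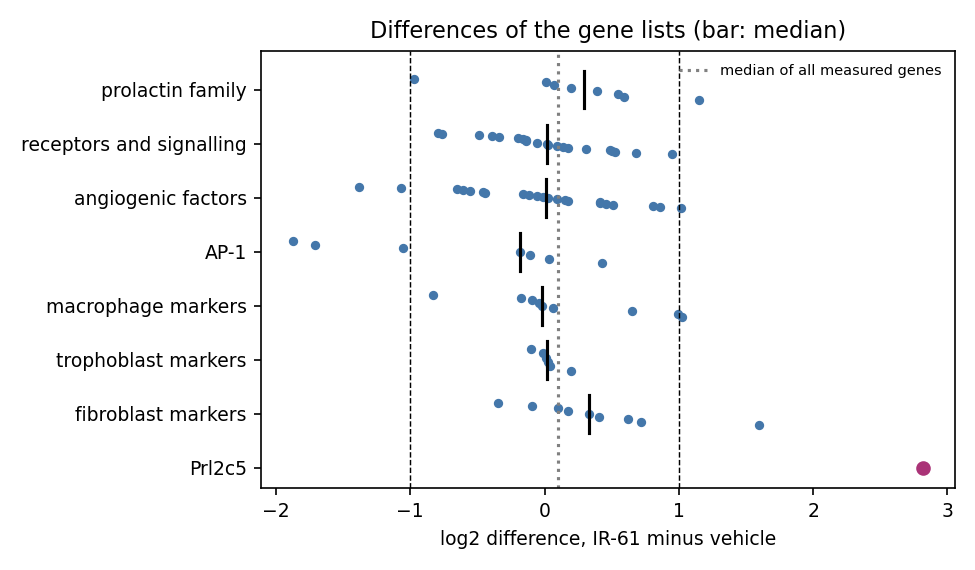
Log2 difference (IR-61 minus vehicle) of each gene measured on both arrays in 7 lists, with the list median as a black bar, the median of all measured genes (0.10) dotted and 2-fold dashed. List medians lie between -0.18 (AP-1) and 0.33 (fibroblast markers), and *Prl2c5* (2.82) lies beyond every gene of these lists.

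Marker genes of macrophages, trophoblast and fibroblasts were read on these arrays, and the identity of the cells was not tested. Macrophage markers were well above background on both arrays for 9 of 9 genes with a probe (*Cd68* had none). Their signals ranged from 1002 to 95036 with vehicle and from 790 to 149992 with IR-61. *Csf1r*, the receptor of the macrophage growth factor, had signals of 95036 and 139205 by its brightest probe and a difference of 0.06, while its other probes gave -0.64 and -0.12. *Adgre1*, which encodes the macrophage marker F4/80, was higher with a difference of 1.03 (0.94 with scaling by the median). Its other probe gave 0.85, under 2-fold. *Spi1*, a myeloid transcription factor, was lower at -0.83.
Trophoblast markers were measured on both arrays for 6 of 10 genes. None passed 2-fold (1.99% of all measured genes were higher and 1.39% lower by that much). Their differences by the brightest probe lay between -0.10 and 0.19, while another probe of *Gcm1*, a placental transcription factor gene, gave -1.10. The placental lactogens *Prl3b1* and *Prl3d1* belong to this list too, and *Tpbpa*, *Cdx2* and *Elf5* did not reach that level on either array. The summed signal of the list, in units of the 75th percentile of the array, was 32.9 with vehicle and 30.8 with IR-61. Nearly all of it came from *Gcm1* (signals 40722 and 53340), and without this gene it was 0.654 and 0.691. Other probes of *Gcm1* were dimmer, at 26644 and 5633 with vehicle, and A_51_P130905 was not well above background on either array (6.02 and 6.58). The sum thus depends on which probe of this gene is taken.
Fibroblast markers were well above background on both arrays for all 9 genes, with signals from 139 to 27148 with vehicle and from 219 to 58670 with IR-61. The collagen gene *Col1a1* gave the highest of them, with a difference of 0.62, and *Dcn*, which encodes a matrix proteoglycan, had signals of 16543 and 21738 and a difference of -0.09. On both arrays *Col1a1* and *Dcn* lay within the range of the macrophage markers. Other genes of the fibroblast list lay below that range, down to 139 with vehicle and 219 with IR-61. Signals of different probes were not compared as amounts of RNA. *Postn*, a matrix protein gene, was 3.02-fold higher, from 847 to 3586, with a difference of 1.59. *Col3a1* was the lowest at -0.34. The list had a median of 0.33 and a summed signal of 52.4 with vehicle and 64.9 with IR-61. In it 1 of 9 genes was higher by 2-fold or more, as were 1.99% of all measured genes. More cells of a type and more RNA per cell cannot be told apart on these arrays, and the part of fibroblast-type expression in the difference of *Prl2c5* was not tested.

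The genes with differences nearest to that of *Prl2c5* over the 2 arrays were *Chst2*, a sulfotransferase gene, at 2.78 (signals 28.0 and 269), *Fcrl1*, an Fc receptor-like gene, at 2.91 (70.2 and 740.1) and *Dbp*, a circadian transcription factor gene, at 2.66 (881 and 7818). With normexp background correction *Chst2* was at 1.36, *Fcrl1* at 2.21 and *Dbp* at 2.20, where *Prl2c5* was at 2.40. The other probe of *Chst2* was not measured on both arrays, and the gene dropped out under the stricter filter on dim probes. Among 4160 genes with several probes measured on both arrays, 10 (0.24%) had all of them higher by 2-fold or more. *Prl2c5* had the largest smallest difference of these 10, at 2.53. It was followed by *Dbp* at 2.29, *Hpgd*, which encodes a prostaglandin-degrading enzyme, at 2.14, *Arhgap19* at 1.45 and the transporter gene *Slco2b1* at 1.26. Also among them were *Foxa2*, *Sirpb1a*, *Prrx1* and *Nr2f1*, between 1.02 and 1.17. By the brightest probe *Foxa2* was under 2-fold with normexp (0.41), *Nr2f1* with normexp (0.79) and scaling by the median (0.94), and *Prrx1* with scaling by the median (0.98) and with the trend over rows and columns removed (0.89).
Of 20 other genes that lie within 5 entries of a proliferin gene in the gene table, 18 had no named probe. The remaining 2 lay on the side of *Prl2c3*, and neither passed 2-fold. *Ero1b*, an oxidoreductase gene of the endoplasmic reticulum, had a difference of -0.46 (0.03 without scaling), and *Gpr137b-ps*, a transcribed pseudogene, of -0.27 (0.22 without scaling).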

How the data were processed

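RAW264.7 cells were measured with 1 Agilent array per condition. The authors deposited the processed intensity of every spot, background-subtracted and detrended by Feature Extraction (11.0.1.1 in the file headers, 11.0.0.1 in the submitters' processing notes, another version in the study's methods), and a table of log2 values that share their quartiles (4.59 and 10.66). How this table was made is not given in the sources used here.

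Control spots and outlier spots (124 and 139) were left out, log2 intensities were averaged per probe and centred on the array's 75th percentile. A probe was well above background where a share of at least 0.5 of its spots was flagged so (77.6% and 81.2% of probes), and no spot was saturated. A gene took its brightest probe. Accessions without version were matched to GRCm38.p6 gene names. A bound sets the dim side to the higher of its signal and the lowest signal well above background. The spread between spots had an SD of 0.267 and 0.244 (vehicle and IR-61) under a log2 signal of 6, 0.180 and 0.146 up to 10, and 0.0704 and 0.0632 above. The number of arrays limits the precision.

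Members and lists were chosen with earlier results of these data known. Named were all probes of the members, the measured prolactin family, the extremes of each list and its genes past 2-fold, the 3 genes nearest to *Prl2c5*, genes with all probes past 2-fold and neighbours. *Igf2r*, *Prlr*, *Ghr*, *Jak2*, *Stat5a*, *Stat5b*, *Csf1r*, *Col1a1*, *Dcn*, *Angpt1*, *Fgf2*, *Igf1*, *Socs2*, *Cxcl12* and the markers below background were named outside this rule, and 1 gene that met it is not reported here. The steps were tested on simulated arrays. In 14 alternatives the scaling, background correction, spot and probe summaries, filters and fold limit were changed. Normexp was run on the median spot signal. Python 3.11.15, numpy 2.4.6, pandas 2.3.3, statsmodels 0.14.6, biopython 1.88, matplotlib 3.10.9, R 4.3.3 and limma 3.58.1 were used.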

Additional observations from a re-analysis of the deposited data

How the results depend on the processing

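No paired analysis was possible because a single array per condition allows no test. Shifts within the SD expected from spots are not listed. *Prl2c5* moved to 3.31 without scaling and to 2.40 with normexp background correction, in which 4 IR-61 spots with a local background above their signal took the median background, a choice made after seeing the data. Under the other settings its difference stayed within that SD of 2.82, and both probes passed 2-fold and 3-fold. Without scaling the median of all measured genes was 0.59 in place of 0.10, and the list medians were 0.78 for the prolactin family, 0.50 for receptors and signalling, 0.50 for angiogenic factors, 0.31 for AP-1, 0.47 for macrophage, 0.50 for trophoblast and 0.82 for fibroblast markers. With normexp they were -0.13 for receptors and signalling, -0.12 for angiogenic factors and 0.18 for fibroblast markers. The angiogenic median was -0.10 with loess and -0.088 in the deposited table, and that of receptors and signalling was -0.10 with the trend over rows and columns removed. The causes were not tested. In place of 336 genes higher and 235 lower by 2-fold, 2156 and 72 were found without scaling, 124 and 149 with normexp, 921 and 440 without a filter on dim probes, and 50 and 64 at 3-fold. The stricter filter left 209 higher. Quantile normalization gave 257 higher and 279 lower, loess 255 and 278, and the deposited log2 values 266 and 281. Of 606 values of 47 single genes and probes, 88 moved, 47 of them without scaling and 24 with normexp, and none that passed 2-fold changed sign.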
